A study of Mus musculus with 2 samples.

Results

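Early thymic progenitors that were Flt3+ Ly6d- HSA- on their surface were sorted from thymuses of C57BL/6 mice and profiled cell by cell. The mice had the genotype Bcl11b yfp/yfp, in which the T-lineage gene Bcl11b carries a yellow fluorescent reporter. The sort holds the 1412 cells whose hashtag, an antibody-borne barcode, the authors assigned to that sort, out of 8293 cell barcodes in all. Every group shared the genotype and was sorted as Lin- 7AAD- Kit+, meaning free of lineage markers, excluding a dead-cell dye and positive for the stem cell factor receptor. The sort described here and 3 others were also CD25- and Bcl11b reporter negative. Those others were Flt3+ HSA+ (1182 cells, no Ly6d gate stated), Flt3- Ly6d- HSA- (1205 cells) and Flt3- Ly6d+ (847 cells, no HSA gate stated). The control (3302 cells) was Lin- 7AAD- Kit+ with no further gate, so it can also hold later, CD25+ cells. The number of mice, their age and their sex were not given in the labels, and a further 345 barcodes were unassigned and left out. The series text says that the sorts followed populations seen in an earlier pseudotime ordering.

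Early thymic progenitors are the first cells to settle in the thymus from the bone marrow. They arrive with a progenitor programme that includes Flt3, a cytokine receptor tyrosine kinase, and the transcription factors Meis1, Hoxa9 and Lmo2. Notch signals in the thymus then induce Tcf7, Gata3 and finally Bcl11b, and the progenitor genes are shut off. Before that step the cells can still give rise to myeloid and some other blood cells.

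All 5 sorts went into 1 library, with 1 sort of each kind, so there is no replicate and no test. Levels are CPM, the unique molecular identifiers (UMIs) of a gene summed over a sort and scaled to a total of 1000000 UMIs, and values in parentheses are 95% intervals that cover counting error only. The sort gave 24624463 UMIs, with a median of 15478 per cell. The other sorts had medians of 9860 to 21152. Mitochondrial transcripts made up a median of 4.20% of its UMIs, and its own hashtag was the most abundant in 1412 of 1412 cells, with a median share of 99.3%. Of the unassigned barcodes, 313 carried 2 hashtags, and 110 of those included the hashtag of this sort. Depth differed between the sorts, and counts of genes that moved by over 1.5 times when each cell was thinned to 3000 UMIs are given with both values.

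The label was first checked against 6 progenitor markers and the gate genes. Flt3 stood at 87.7 CPM (84.1 to 91.5) in the sort and 64.1 in the Flt3+ HSA+ sort. Among Flt3- cells it stood at 23.8 in the Ly6d- HSA- sort and 14.2 in the Ly6d+ sort, and the control had 18.02. At a fixed 3000 UMIs per cell, 24.3% of cells of the sort held a Flt3 UMI (71.4% at full depth). In Flt3- Ly6d+ cells the share was 4.84% (14.4% at full depth). Flt3 RNA was thus ordered as the Flt3 gate would have it, with the sort at the top. Il2ra, which encodes CD25, stood at 0.569 CPM, and Bcl11b at 0.284 CPM, the latter from 7 UMIs in all. Cd24a, which encodes HSA, was at 80.5 CPM against 142.3 in the HSA+ sort. Ly6d was at 17.5 CPM against 431 in the Ly6d+ sort.

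Ccr9, the receptor for the thymic chemokine CCL25 (chr9:123678439-123784330, mm10), stood at 35.9 CPM (33.6 to 38.4). The Flt3+ HSA+ sort had 12.7, the Flt3- Ly6d- HSA- sort 4.71, the Flt3- Ly6d+ sort 2.73 and the control 9.39. Of the 6 markers it set the sort furthest from its nearest neighbour, with a ratio of 2.82 (2.49 to 3.22) over Flt3+ HSA+ cells. Meis1, a homeobox factor of stem cells, was at 23.6, 19.9, 13.5, 9.89 and 6.85 CPM in the same order of sorts. Its partner Hoxa9 was at 96.6, 87.7, 48.7, 39.7 and 34.1 CPM. The sort was highest for both, but only by 1.18-fold (1.049 to 1.335) for Meis1 and 1.10-fold (1.04 to 1.17) for Hoxa9 over Flt3+ HSA+ cells.

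The other markers did not peak in the sort. Hmga2, a chromatin protein of fetal and progenitor cells, was at 47.4 CPM in the sort, 51.2 in Flt3+ HSA+ cells and 14.3, 11.6 and 12.1 in the rest. The interval of its ratio between the Flt3+ sorts, 1.08 (0.998 to 1.17) over the sort, holds 1. Lmo2, an adaptor of transcription factor complexes, was at 127.8 CPM in the sort and 92.5, 135.8, 62.9 and 40.0 in the others. Its top place in Flt3- Ly6d- HSA- cells was by 1.06-fold (1.003 to 1.124) over the sort and changed with the cells used and their weight. Without cells rich in granulocyte transcripts, described next, the sort stood at 111.9 CPM, 1.11-fold above the highest other gated sort. That ratio was 1.07 with equal weight per cell and 1.02 with cells thinned to 3000 UMIs. It was 1.01 without the 5% of cells with most UMIs and 1.04 in cells with no G2 or M phase UMI.

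**Figure D1:**
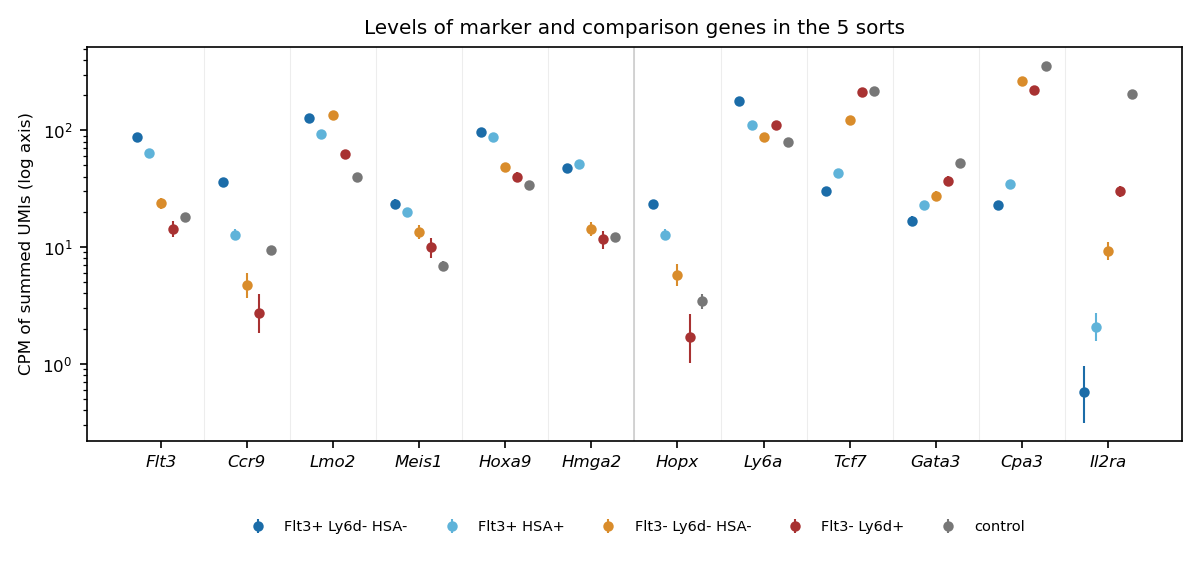
CPM of summed UMIs (log axis) of 12 genes in the 5 sorts, with 95% counting intervals as vertical lines. The sort (dark blue) is highest for Flt3, Ccr9, Meis1, Hoxa9, Hopx and Ly6a and lowest for Tcf7, Gata3, Cpa3 and Il2ra.

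A small class of cells in the sort carried a granulocyte programme. Of 14 granulocyte and monocyte markers, 68 of 1412 cells (4.82%, 3.76 to 6.07) had UMIs for at least 7 in the same cell, counted at full depth. Counts of markers per cell had a peak of 584 cells at 2 markers and a smaller group with 18 cells at 11, and cells were found at each number between. There were 17 cells at 5, 2 at 6, 10 at 7, 3 at 8 and 5 at 9, so 32 cells lay near the limit at 5 to 8. The class made up 2.28% of the Flt3+ HSA+ sort, 8.38% of the Flt3- Ly6d- HSA- sort and 1.36% of the control. In the Flt3- Ly6d+ sort it was 0 of 847 cells, which allows a share of up to 0.354% (3 cells of the total). Class cells were deep, with a median of 36154 UMIs against 15054 in the rest of the sort, and held 10.5% of its UMIs. Deeper cells meet a count of markers more easily, and the part of depth in this share was not tested.

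**Figure D2:**
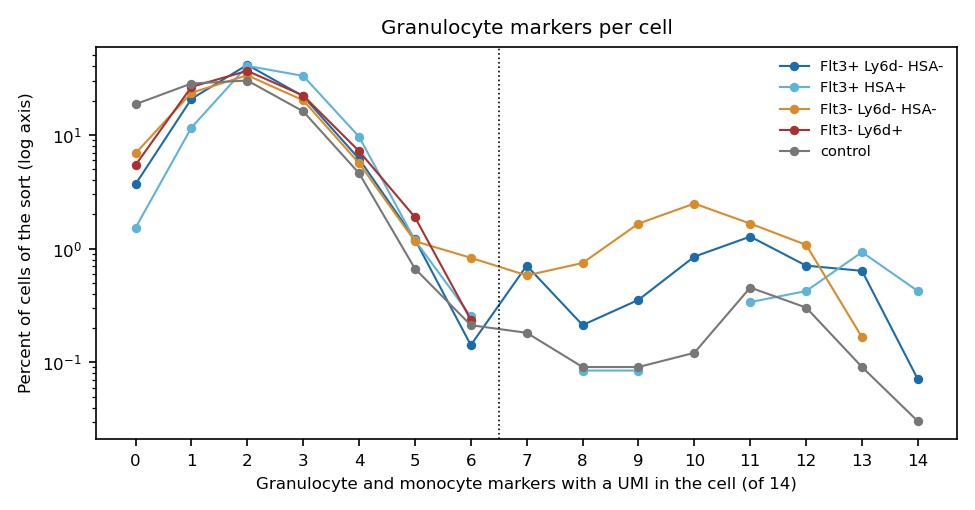
Percent of cells of each sort (log axis) by the number of 14 granulocyte and monocyte markers with a UMI, with the limit of the class dotted; numbers held by no cell have no point. The sort (dark blue) has its peak at 2 markers and a second group of cells from 7 to 14, while Flt3- Ly6d+ cells (red) end at 6.

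The class chose its own markers, so their values are a description. Elane, the neutrophil elastase, was at 5740 CPM in the class and 3.95 in the other cells of the sort. Mpo, myeloperoxidase, was at 7143 and 207.5 CPM, and Ms4a3, a granulocyte and monocyte progenitor gene, at 1182 and 0.363 CPM. Cebpe, a transcription factor of granulocyte maturation, was at 82.8 and 0.0908 CPM.

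Genes the class was not chosen by also differed. Over all genes at 5 CPM or more, 14.9% were at least 1.5-fold higher in the class and 27.0% lower. Of the 6 sort markers, 5 were lower. Flt3 was at 12.3 CPM in the class and 96.6 in the rest (7.84-fold lower, 5.54 to 11.5), Hmga2 at 3.47 and 52.5 CPM, and Hoxa9 at 15.4 and 106.2 CPM. Ccr9 had 3 UMIs in the class, or 1.16 CPM, against 40.0 CPM (34.7-fold lower, 11.8 to 168). The exception was Lmo2, at 263 and 111.9 CPM (2.35-fold higher, 2.16 to 2.56).

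Lymphoid genes were low there too. Dntt, the terminal transferase of lymphoid precursors, was at 22.7 CPM in the class and 1124 in the rest. All 8 measured T-lineage regulators were lower, Tcf7 among them at 3.47 and 33.3 CPM, as were 8 of 9 lymphoid priming genes. Spi1, which encodes the myeloid and progenitor factor PU.1, was at 314 and 160 CPM (1.96-fold higher). Mcpt8, a basophil protease, was at 57.4 and 1.45 CPM. No doublet caller was run, and whether any of these barcodes hold more than 1 cell was not tested.

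Markers of other cell types were summed over each list. Granulocyte and monocyte markers summed to 3248 CPM in the sort. The Flt3+ HSA+ sort had 3257, the Flt3- Ly6d- HSA- sort 4571, the Flt3- Ly6d+ sort 506 and the control 1125, and each of the 14 was above 0 in the sort. The mast cell and basophil markers summed to 42.1 CPM in the sort against 56.1 to 381.7 elsewhere, with Cma1, Mcpt4, Fcer1a and Prss34 at 0. Erythroid and megakaryocyte markers summed to 30.2 CPM against 70.0 to 576.6, with Hba-a1, Hba-a2, Epor and Gp1ba at 0.

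The sort therefore had the lowest sums of these last lists, but a single gene held much of each. Hbb-bt gave 29.0 of the 30.2 CPM of the erythroid and megakaryocyte sum. Cpa3 gave 22.7 of 42.1 CPM of the mast cell and basophil sum, and 219.2 of 231.6 CPM in Flt3- Ly6d+ cells. With all cells, Hdc (8.89 and 4.33 CPM), Mcpt8 and Gata2 were higher in the sort than in Flt3- Ly6d+ cells. All of these mast cell and basophil genes were lower than in Flt3- Ly6d- HSA- cells. The Mcpt8 UMIs of the sort lay mostly in the granulocyte class. Without that class, 2 genes of the list reached 5 CPM in the sort or in Flt3- Ly6d+ cells. Of these, 0 were at least 1.5-fold higher in the sort and 2 lower, where 482 of 9203 genes were higher and 583 lower. B cell markers summed to 48.0 CPM, within the 41.5 to 59.2 of the others, with Cd79a, Pax5 and Ms4a1 at 0. Natural killer and innate lymphoid markers summed to 846 CPM (780 to 1290 elsewhere), with Ncr1, Tbx21 and Eomes at 0. Dendritic cell markers summed to 460 CPM (408 to 483 elsewhere), with Xcr1 and Cd209a at 0. Their MHC class II member H2-Aa was at 0.487 CPM in the sort. The Flt3+ HSA+ sort had 13.8, the Flt3- Ly6d- HSA- sort 2.85, the Flt3- Ly6d+ sort 5.28 and the control 14.02. Gamma delta T cell, later thymocyte and thymic epithelial and stromal markers summed to 21.2, 7.19 and 7.03 CPM. A count of 0 in the sort allows a level of up to 0.122 CPM.

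Genes that stood apart from each of the other gated sorts were few. To be counted, a gene needed a ratio of 2 or more, and in the sort where it was higher 20 CPM or more and UMIs in 5% of cells or more. Ccr9 alone was counted as higher than in each of the 3, which is 0.0169% of the 5920 genes tested, and at a ratio of 1.5 the count was 4 (0.0676%), which includes a predicted gene. The named ones were Ccr9, Hopx and Ly6a. Hopx, a small homeodomain protein found in stem cells, stood at 23.2 CPM (21.3 to 25.2) in the sort and 12.8, 5.78, 1.70 and 3.41 in Flt3+ HSA+, Flt3- Ly6d- HSA-, Flt3- Ly6d+ and control cells. Its ratio over the next sort was 1.82 (1.58 to 2.09). Ly6a, the stem cell antigen Sca-1, stood at 177.4 CPM in the sort and 111.4, 88.0, 111.9 and 78.8 in the others. It was 1.59-fold (1.49 to 1.69) above Flt3- Ly6d+ cells, which did not differ from Flt3+ HSA+ cells beyond counting error.

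Other genes highest in the sort had smaller steps over the next sort. Ctss, the lysosomal protease cathepsin S, was at 57.7 CPM against 41.0, 30.8, 15.8 and 14.8 in the same order (1.41-fold over the next, 1.30 to 1.53). Ifngr2, a chain of the interferon gamma receptor, was at 32.4 CPM against 23.4, 17.8, 5.28 and 11.3 (1.38-fold, 1.24 to 1.54). Ifi27l2a, an interferon-induced gene, was at 65.0 CPM against 43.5, 36.2, 24.3 and 26.0. Flt3+ HSA+ cells were second for each of these 3 genes, and the last 2 places differed between them. Adgrl4, an adhesion receptor, was at 53.0 CPM against 39.1, 26.0, 13.3 and 13.3, and its last neighbours did not differ beyond counting error. Il12a, which encodes the p35 chain of interleukin 12, was 1.35-fold over the next sort (1.25 to 1.45).

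At the other end, Hbb-bt, a beta globin, was the 1 gene counted as lower than in each other gated sort (0.0169%), and 4 genes passed at a ratio of 1.5 (0.0676%). It stood at 29.0 CPM in the sort and 68.4, 193.2, 563 and 552.9 in Flt3+ HSA+, Flt3- Ly6d- HSA-, Flt3- Ly6d+ and control cells. Of its UMIs in the sort, 53.0% lay in 10 cells, so its level rests on few cells. The others were Scin (33.1 CPM against 58.0, 117.6, 171.4 and 191.4), which encodes an actin-severing protein, Deptor (15.8 CPM against 25.1, 69.3, 75.3 and 59.0), an mTOR inhibitor, and Cpa3 (22.7 CPM against 34.3, 261.8, 219.2 and 357.8), a mast cell carboxypeptidase also read in early progenitors.

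The T-lineage regulators Tcf7, Gata3 and Tox were lowest in the sort as well. Tcf7, which encodes TCF-1, stood at 30.2 CPM in the sort and 42.8, 121.6, 211.1 and 215.1 in the others, a ratio of 1.42 of the lowest other sort over it. Gata3 stood at 16.7 CPM and 22.7, 27.4, 36.7 and 52.2 (1.36). Tox, a nuclear factor of thymocyte selection, stood at 43.7 CPM and 57.9, 83.1, 91.8 and 61.4 (1.33). Among cells with no G2 or M phase UMI, Gata3 did not keep this place, with a ratio of the sort over the lowest other sort of 1.07.

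Against its nearest neighbours the counts were uneven. Over Flt3+ HSA+ cells 5 of 5533 genes (0.0904%) were higher and 9 (0.163%) lower. The 9 lower genes became 51 with cells thinned to 3000 UMIs or weighted equally, 35 without the 5% of cells with most UMIs, 16 without the granulocyte class and 4 in cells with no G2 or M phase UMI. The 5 higher genes became 2 after thinning and 4 without the granulocyte class. With all cells the higher ones were Ccr9, Irf8 (2.79-fold), a factor of dendritic and monocyte fates, Hist1h2bc (2.71-fold), Ms4a6c (2.59-fold) and Ccl9 (2.11-fold). Without the granulocyte class Irf8 was less than 1.5-fold higher. Of the lower ones, Cd74, the MHC class II invariant chain, was 5.68-fold lower at 7.96 against 45.2 CPM, and Nusap1, Ube2c, Spag5, Sgol2a, Kif11, Hmmr and Cenpl are mitotic genes. Over Flt3- Ly6d- HSA- cells 107 of 5691 genes (1.88%) were higher and 40 (0.703%) lower, and in cells with no G2 or M phase UMI 29 were higher and 39 lower. The largest ratio upward was again Ccr9 (7.63, 5.94 to 9.96), and the largest downward was Cpa3 (11.5-fold).

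Flt3- Ly6d+ cells were the gated sort with the lowest Flt3, Ccr9 and Hopx RNA. Against them, 94 of 5770 genes (1.63%) were higher in the sort and 74 (1.28%) lower, and in cells with no G2 or M phase UMI 50 were higher and 77 lower. The largest ratios upward belonged to granulocyte genes: Elane at 608.8 against 1.41 CPM (431-fold, 261 to 770), Prtn3, which encodes proteinase 3, at 793.6 against 9.04 CPM (87.8-fold, 71.8 to 108), and Ly6c2 at 99.6 against 1.51 CPM (66.1-fold). These differences lay in the 68 class cells. The granulocyte genes given here are among the 14 markers that chose the class. Leaving it out took cells high in them from the sort and no cells from Flt3- Ly6d+, so the changes below are a description. Without the class, Elane was at 3.95 CPM (2.80-fold, 1.61 to 5.21), Prtn3 at 11.4 CPM (1.26-fold, 0.988 to 1.61) and Ly6c2 at 1.86 CPM (1.24-fold, 0.678 to 2.36). Ctsg, which encodes cathepsin G, turned from 13.97-fold higher to a ratio of 0.745 (0.648 to 0.858). Mpo likewise turned from a ratio of 2.69 to 0.595 (0.569 to 0.621), with 207.5 CPM in the remaining cells of the sort against 349 in Flt3- Ly6d+ cells.

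The ratios of several other genes moved less when the class was left out. Hopx was 13.7-fold higher in the sort (8.58 to 23.2) and 14.9-fold without the class. Ccr9 was 13.2-fold higher (9.10 to 19.8) and 14.7-fold, Flt3 6.17-fold (5.23 to 7.32) and 6.79-fold, and Hmga2 4.09-fold (3.39 to 4.96) and 4.53-fold. Ifngr2 was 6.14-fold higher (4.68 to 8.20) and 5.96-fold without the class. Lmo2 went from 2.03-fold to 1.78-fold. Prdx4, a peroxiredoxin of the secretory pathway, was at 76.5 against 17.1 CPM with all cells (4.46-fold, 3.83 to 5.22). Its ratio without the class is not given here. Annexins moved more: Anxa1 went from 5.45-fold to 3.07-fold and Anxa3 from 32.8-fold to 2.89-fold.

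Genes lower in the sort than in Flt3- Ly6d+ cells included several that mark later thymocytes, Il2ra and Tcf7 among them. Fgf3, a fibroblast growth factor, was at 0.203 CPM from 5 UMIs against 23.0 CPM (113-fold lower, 47.9 to 352). Il2ra was at 0.569 against 29.95 CPM (52.7-fold, 30.9 to 97.5), although both sorts were gated CD25-. Tcf7 was 7.00-fold lower (6.44 to 7.61), Cpa3 9.64-fold (8.79 to 10.6) and Ccl5, a chemokine, 9.98-fold (8.48 to 11.8). The others named by rank were Ly6d (24.6-fold), Hbb-bt (19.4-fold), Qrfp (6.74-fold), Cd160 (6.72-fold), Dhrs3 (5.55-fold), Scin (5.18-fold) and Muc13 (4.79-fold).

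**Figure D3:**
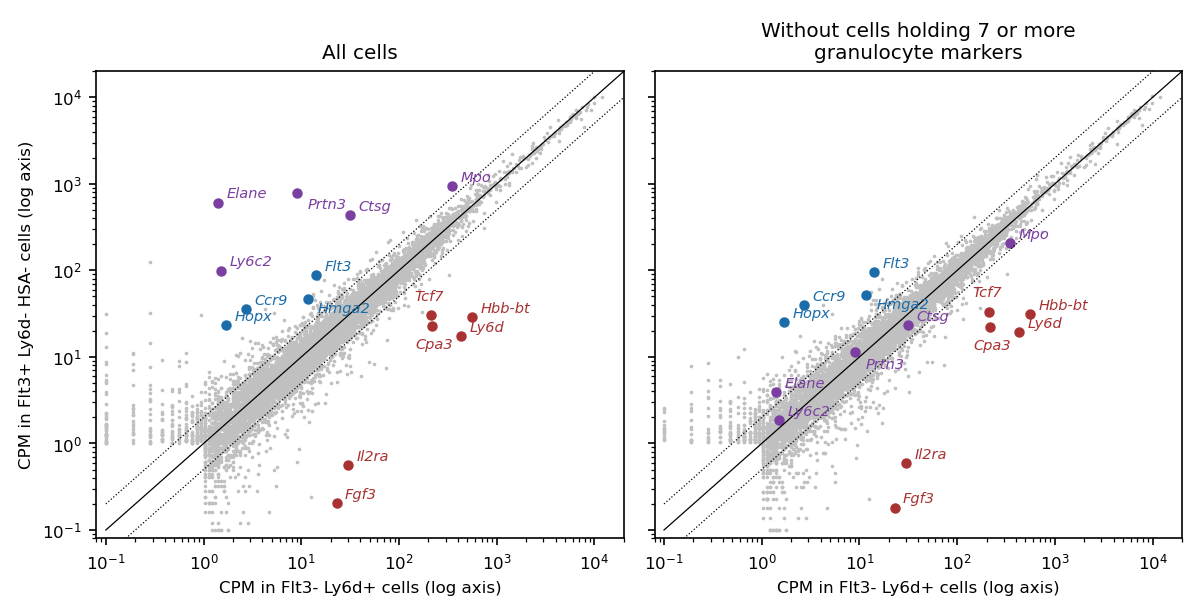
CPM of each gene at 1 CPM or more in either sort (log axes), Flt3+ Ly6d- HSA- cells against Flt3- Ly6d+ cells, with all cells (left) and without the granulocyte class (right); lines mark equal levels and ratios of 2, and levels under 0.1 are drawn at 0.1. Granulocyte genes (purple), all among the markers that chose the class, move to near or below the line of equal levels at right, with Elane at 3.95 CPM. Ccr9, Hopx, Flt3 and Hmga2 (blue) and Tcf7, Cpa3, Il2ra and Fgf3 (red) stay apart.

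Gene lists were read at a ratio of 1.5 among genes at 5 CPM or more in either sort, where 6.13% of 9231 genes were higher and 7.14% lower than in Flt3- Ly6d+ cells (median log2 ratio -0.04). Counts of list members are descriptions without a test. Of 18 measured stem and progenitor regulators, 4 were higher (Lmo2, Meis1, Hoxa9 and Hmga2, all sort markers) and 3 lower: Gfi1b (2.92-fold), Nfe2 (1.86-fold) and Runx1 (1.55-fold). The other 11, among them Mef2c (352.5 and 324.6 CPM) and Bcl11a (185.1 and 177.5 CPM), lay within 1.5-fold. Of 8 T-lineage regulators 0 were higher and 5 lower, with Zfpm1, a GATA cofactor, 3.59-fold lower (2.95 to 4.38), Gata3 2.20-fold, Tox 2.10-fold and Runx3 1.63-fold beside Tcf7. Of 5 Notch targets 3 were lower, Il2ra, Dtx1 (0.853 against 9.51 CPM, 11.2-fold, 6.92 to 18.8) and Hes1 (106.6 against 166.5 CPM, 1.56-fold), while Nrarp was at 15.3 and 19.0 CPM.

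Lymphoid and homing genes went both ways. Of 9 lymphoid priming genes, 3 were higher: Dntt at 1008 against 638 CPM (1.58-fold), Ly6a, and Ccr7, the receptor of lymph node chemokines, at 5.16 against 1.04 CPM (4.98-fold, 2.69 to 10.2). The receptor Il7r, on which later thymocytes depend, was 1.77-fold lower. Of 11 homing receptors, Ccr9 and Ccr7 were higher and the integrin chains Itga4 (87.5 against 325 CPM, 3.71-fold) and Itgb7 (1.997-fold) lower. Of 6 T-cell receptor and signalling genes Thy1 was higher (12.5 against 6.03 CPM) and Cd5, Cd7 and Cd247 lower by 2.09-fold to 2.32-fold.

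Among 10 cytokine and growth factor receptors, Flt3, Csf2rb (2.71-fold), Il6ra (1.96-fold) and Csf1r (1.64-fold) were higher, and Il7r and Kit (64.9 against 112.5 CPM) lower. Without the granulocyte class 2 of 9 were higher. Cell cycle genes were higher: 22 of 22 G2 and M phase genes (median log2 ratio 1.21) and 12 of 24 S phase genes (0.57), with Top2a at 307.7 against 170.5 CPM and Ube2c at 214.2 against 76.6 CPM. Cd34, the sialomucin of blood progenitors, was at 466 CPM in the sort, 1.74-fold (1.67 to 1.82) above the 268 of Flt3- Ly6d+ cells, with 424, 356 and 185 in the Flt3+ HSA+, Flt3- Ly6d- HSA- and control sorts.

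The control sort was compared next, since it was not gated on Flt3, Ly6d, HSA, CD25 or the reporter. It shares no cells with the sort, and the ratios below reuse the values of the sort given above. Of 5722 genes 65 (1.14%) were higher in the sort and 95 (1.66%) lower. Hopx had the largest ratio (6.80, 5.77 to 8.04), followed by Flt3 (4.87, 4.52 to 5.25). Adgrl4 (3.99), Hmga2 (3.91), Ctss (3.90), Ccr9 (3.83, 3.44 to 4.27), Il12a (3.82), Klrd1 (3.56), a receptor chain of natural killer cells, and Meis1 (3.44) were also among the 12 highest. The remaining 3, Ly6c2, Prtn3 and Ms4a6c, were 4.83, 3.54 and 3.48-fold higher with all cells and 2.24, 1.60 and 1.98-fold without the granulocyte class. Ly6c2 and Prtn3 are among the markers that chose the class.

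The lowest genes against the control included several of the committed T-cell precursor. Bcl11b was 680-fold lower (330 to 1692), with 0.284 against 193.3 CPM. Cd3g and Cd3d, chains of the T-cell receptor complex, were at 0.406 and 0.203 CPM against 193.1 and 60.4 CPM. Cd3e had 2 UMIs in the sort (357-fold lower, 98.6 to 2948). Il2ra was 362-fold lower, Fgf3 287-fold and Gzma, a granzyme with 4 UMIs in the sort, 175-fold. Ccdc109b (48.5-fold), Fam169b (48.4-fold), Ly6d (23.7-fold), Aqp11 (22.8-fold) and Hbb-bt (19.04-fold) followed.

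By list, 4.45% of 9229 genes were at least 1.5-fold higher than in the control and 4.89% lower. Of 11 T-lineage regulators 0 were higher and 8 lower (median log2 ratio -1.64), and of 11 T-cell receptor and signalling genes 0 were higher and 10 lower (-2.36). Of 18 stem and progenitor regulators 6 were higher, Mef2c (2.165-fold) and Bcl11a (1.65-fold) in addition to the 4 markers, and 3 lower. Cell cycle genes were near the control, with 1 of 22 G2 and M phase genes lower (Mki67, 152.6 against 232.3 CPM) and 1 of 24 S phase genes lower. Of the 11 immediate early genes 3 were higher, among them Nr4a1 (1.90-fold), a gene of receptor signalling.

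The cells of the sort were then compared among themselves, after thinning each to 3000 UMIs, which left 1405 cells. The Fano factor, the variance over the mean, is near 1 for a gene that varies only by counting. It was 1.5 or more for 104 of 5980 genes, against 108, 155, 110 and 170 genes in the other sorts (Flt3+ HSA+, Flt3- Ly6d- HSA-, Flt3- Ly6d+ and control). Granulocyte genes led: Elane (28.5), Prtn3 (27.3), Mpo (15.5) and Ctsg (14.5), and 41.5% of the Elane UMIs lay in 10 cells. Without the class 87 of 6006 genes were at or above 1.5, with Ctsg at 1.86 and Mpo at 1.51. Elane and Prtn3 were then below the mean of 0.05 UMIs per cell needed to be counted.

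Other uneven genes fell into a few kinds. Malat1, a nuclear RNA, had a Fano factor of 6.49 and Hbb-bt one of 5.47. The cell cycle genes Ube2c (4.46) and Hmgb2 (3.96) were followed by the chemokine genes Ccl3 (3.51) and Ccl4 (3.399). Hist1h1b (3.14), a histone, Plac8 (3.11) and Top2a (2.89) closed the list of 15. Without the class Dntt stood at 2.65, Jun at 2.64, and the interferon genes Ifit1 and Isg15 at 2.44 and 2.31. Of the sort markers only Ccr9 passed 1.5, at 1.72, while Flt3 was at 1.09, Lmo2 at 1.15, Meis1 at 1.02, Hoxa9 at 1.19 and Hmga2 at 1.11.

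**Figure D4:**
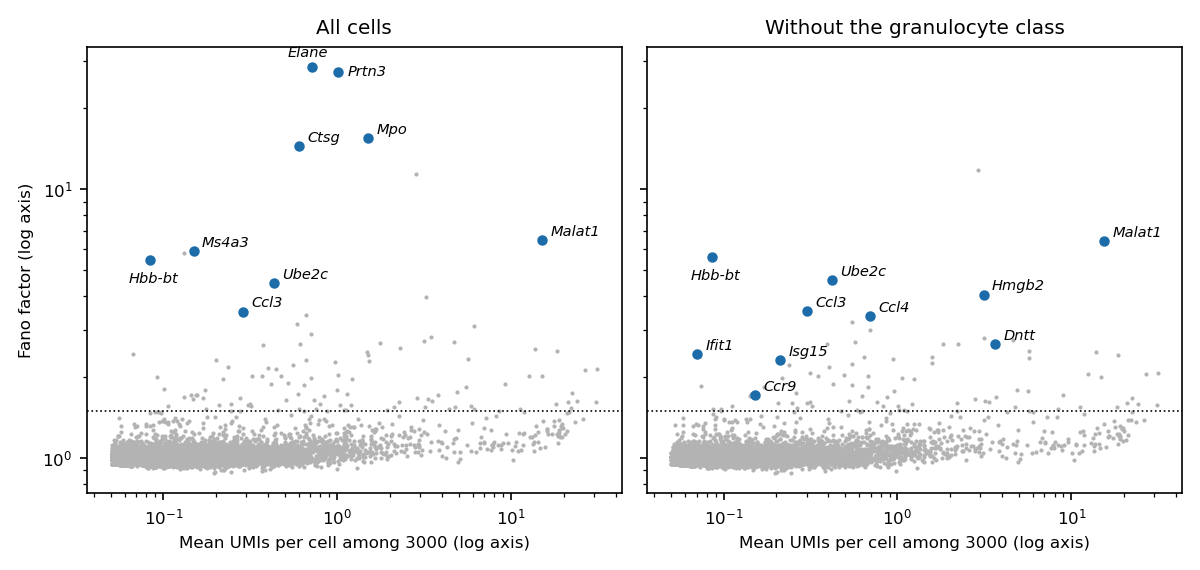
Fano factor against mean UMIs per cell (log axes) for genes with a mean of at least 0.05 among 3000 UMIs in the sort, with all cells (left) and without the granulocyte class (right); the dotted line marks 1.5. Elane, Prtn3, Mpo and Ctsg lie above 14 at left, and without the class the labelled genes include Malat1, Hbb-bt and cell cycle, chemokine and interferon genes, with Ccr9 at 1.71.

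Cells of the sort were split by G2 and M phase UMIs. These classes do not separate S phase cells from cells out of cycle, so cells with no such UMI can be in S phase. Of 1405 cells, 595 (42.4%) held no UMI of the 22 G2 and M phase genes among 3000, 444 (31.6%) held 1 to 4 and 366 (26.1%, 23.8 to 28.4) held 5 or more. The last share was 50.6% of the Flt3+ HSA+ sort, 6.29% of the Flt3- Ly6d- HSA- sort, 9.32% of the Flt3- Ly6d+ sort and 28.2% of the control. The sort lay between the other Flt3+ sort and the Flt3- sorts, near the control. At full depth 50.1% of its cells held 5 or more. Without the granulocyte class, the 330 cells with 5 or more had a median of 22850 UMIs and the 590 cells with none 12440.

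The other progenitor markers differed less between the G2 and M classes than Ccr9 did. Between these cells, 7.07% of 9211 genes were at least 1.5-fold higher in those with 5 or more and 8.80% lower. Ccr9 was at 24.1 CPM in the cells with 5 or more and 55.4 in those without a G2 or M phase UMI (a ratio of 0.435, 0.363 to 0.519). Hopx was at 18.6 and 30.03 CPM (0.618, 0.496 to 0.766) and Flt3 at 83.7 and 105.6 CPM (0.792, 0.712 to 0.881). Lmo2 (115.6 and 116.0 CPM), Hoxa9 (105.3 and 109.9) and Meis1 (24.8 and 26.7) had intervals of the ratio that hold 1. Hmga2 ran the other way, at 54.8 and 46.9 CPM (1.17, 1.01 to 1.35).

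Chemokine genes and some others were higher in the cells with no G2 or M phase UMI. Ccl3 and Ccl4, which encode the inflammatory chemokines MIP-1 alpha and beta, were at 19.6 and 70.1 CPM in cells with 5 or more and at 117 and 281 CPM in cells with none (5.95-fold, 4.99 to 7.15, and 4.01-fold, 3.64 to 4.42). Ltb, which encodes lymphotoxin beta, was at 67.3 and 203 CPM, and Rgs1, a regulator of chemokine receptor signals, at 212 and 450 CPM. Cd7, an early lymphoid surface protein, was at 40.6 and 103.8 CPM. Tcf7 was at 21.5 and 45.0 CPM (0.478, 0.394 to 0.578) and Hes1, a Notch target, at 87.9 and 153.4 CPM. Of 11 immediate early genes 6 were lower in the cells with 5 or more and 0 higher. The cells with these higher levels were the shallower ones, and the part of depth was not tested.

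Interferon response genes also varied among the cells of the sort. Type I interferon acts on a promoter element with a repeated GAAA core and induces antiviral proteins such as ISG15 and the IFIT family. A list of 21 such genes was drawn up after values of these data had been seen. In the sort Isg15 stood at 50.8 CPM against 41.2, 39.0, 42.1 and 36.7 in Flt3+ HSA+, Flt3- Ly6d- HSA-, Flt3- Ly6d+ and control cells. Ifit1 stood at 15.6 CPM against 8.74, 11.1, 10.9 and 9.35. Of 19 measured genes of the list, 8 were at least 1.5-fold higher than in the control (4.45% of all genes) and 4 than in Flt3- Ly6d+ cells (6.13%). Against Flt3+ HSA+ cells 4 were higher, where 0.750% of 9066 genes were higher and 2.05% lower. Against Flt3- Ly6d- HSA- cells 3 were higher, where 4.59% of 9210 genes were higher and 4.56% lower. In these 4 comparisons 0 were lower. At least 3 of 18 interferon genes, the list without Bst2, Ifitm3 and Ly6a, were found among 3000 UMIs in 24.8% of cells of the sort (22.6 to 27.2), against 16.8%, 19.3%, 16.2% and 13.8% of the others. Without the granulocyte class, 12 of 20 genes of the list were lower in cells with 5 or more G2 and M phase UMIs and 0 higher (median log2 ratio -0.71). Over all genes 8.80% were lower and 7.07% higher. The share of such cells, given above, was higher in Flt3+ HSA+ cells and lower in the Flt3- sorts. The part of the cell cycle in these differences was not tested.

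Promoter sequence of Isg15, by which cells are split next, of the 2 genes of the list that differed most in that split (Ifit3 and Ifit1) and of 1 that differed little (Bst2) is shown from 160 to 31 bases before the RefSeq start site, 5′ to 3′ on the strand of the gene. Capitals mark each GAAANNGAAA or its reverse complement, with overlapping matches joined. The stretches are chr4:156200849-156200978 (minus strand) for Isg15, chr19:34640729-34640858 (plus) for Ifit1, chr19:34583369-34583498 (plus) for Ifit3 and chr8:71537503-71537632 (minus) for Bst2, all from RefSeq on GRCm38.p6.
Isg15: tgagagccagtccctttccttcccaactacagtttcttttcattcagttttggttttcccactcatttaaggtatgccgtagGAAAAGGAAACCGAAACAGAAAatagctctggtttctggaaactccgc
Ifit1: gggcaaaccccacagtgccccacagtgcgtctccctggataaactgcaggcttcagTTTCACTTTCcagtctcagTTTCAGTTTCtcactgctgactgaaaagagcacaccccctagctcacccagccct
Ifit3: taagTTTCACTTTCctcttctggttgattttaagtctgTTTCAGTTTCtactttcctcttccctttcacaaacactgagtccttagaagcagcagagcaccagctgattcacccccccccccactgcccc
Bst2: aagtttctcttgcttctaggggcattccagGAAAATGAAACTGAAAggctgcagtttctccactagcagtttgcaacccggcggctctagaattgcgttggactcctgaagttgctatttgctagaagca

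Isg15 holds 1 joined run of 22 bases, Ifit1 and Ifit3 hold 2 separate matches each, and Bst2 a run of 16 bases. Of the list, 15 of 21 genes had a RefSeq promoter by symbol, and 7 of these held a match in the 250 bases before a start site: Bst2, Ifi203, Ifit1, Ifit3, Isg15, Stat2 and Trim30a. The same search over all RefSeq genes found a match in 936 of 27025 (3.46%). A match is a string of letters and not a measured binding site.

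Cells of the sort with an Isg15 UMI among 3000 were compared with those without, a split also chosen after values were seen. Such cells made up 12.7% of the sort, and 8.84%, 9.66%, 8.60% and 9.79% of the others. Without the granulocyte class there were 177 cells with and 1160 without, at medians of 13400 and 15400 UMIs. Over all genes at 5 CPM or more, 3.93% were at least 1.5-fold higher in the Isg15 cells and 2.68% lower, while all 20 interferon genes of the list besides Isg15 were higher. Ifit3 was at 35.8 and 0.720 CPM (49.8-fold, 28.2 to 94.6), Ifit1 at 108 and 5.45 CPM (19.9-fold, 15.8 to 25.1) and Irf7, a transcription factor that amplifies the response, at 126.5 and 22.2 CPM (5.70-fold). Ly6a was at 356 and 175 CPM (2.04-fold) and Bst2 at 435 and 258 CPM (1.69-fold).

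The range ran from Ifit3 down to Ifi203 and Stat2 at 1.67-fold. Ccl5, a chemokine outside the list, was at 41.7 and 3.70 CPM (11.3-fold, 8.27 to 15.4). Cell cycle genes were lower in the Isg15 cells, 19 of 22 G2 and M phase genes by at least 1.5-fold (median log2 ratio -0.69), with Mki67 at 98.1 and 158.3 CPM and Ube2c at 113.3 and 222.5 CPM. Of the sort markers Ccr9 was higher (57.2 and 37.8 CPM, 1.51-fold, 1.26 to 1.81) and Flt3 slightly so (1.17-fold, 1.03 to 1.32). Hoxa9, Lmo2, Meis1 and Hmga2 had intervals that hold 1. In the granulocyte class 15 of 19 interferon genes were lower than in the rest of the sort and 0 higher, where 27.0% of all genes were lower and 14.9% higher.

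**Figure D5:**
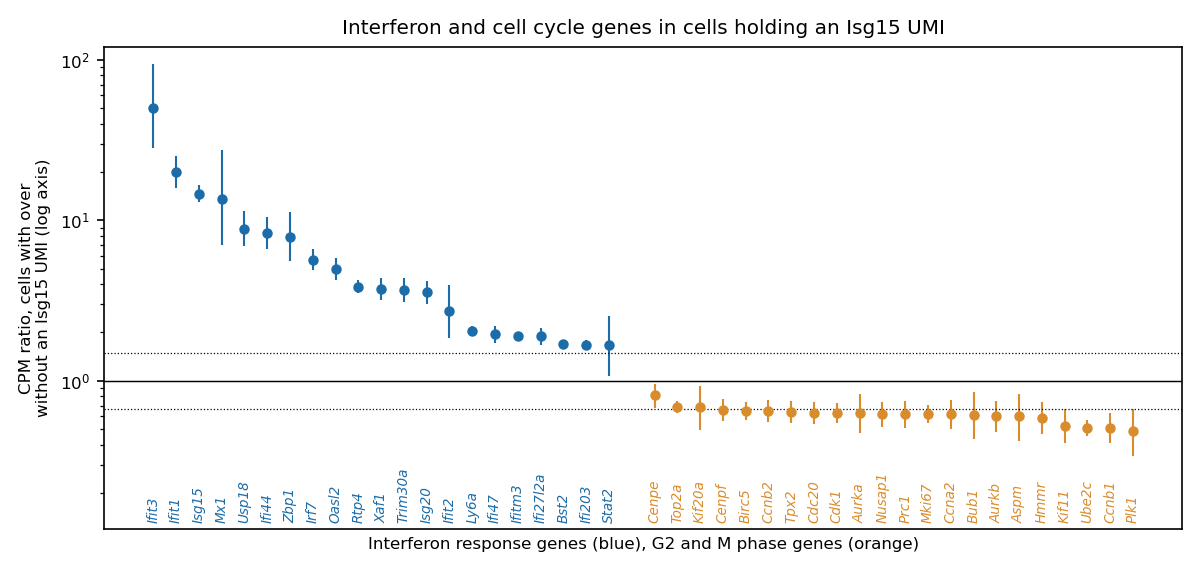
Ratio of CPM (log axis) between cells of the sort with and without an Isg15 UMI among 3000, without the granulocyte class, for interferon response genes (blue) and G2 and M phase genes (orange), with 95% counting intervals; dotted lines mark 1.5-fold. Isg15 itself defined the split; the other 20 interferon genes lie above 1.5, and 19 of 22 G2 and M phase genes lie below the lower line.

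Tcf7, a T-lineage regulator, had a UMI in 8.83% of cells of the sort at 3000 UMIs (31.9% at full depth), against 40.8% of Flt3- Ly6d+ cells. Outside the granulocyte class, the 123 cells with a Tcf7 UMI were compared with the 1214 without. Ccr9 was at 21.7 and 41.7 CPM (a ratio of 0.521, 0.368 to 0.718), Hmga2 at 39.0 and 53.7 CPM (0.725, 0.561 to 0.924) and Hoxa9 at 86.8 and 107.9 CPM (0.805, 0.680 to 0.947). Flt3 did not differ beyond counting error (89.0 and 97.2 CPM). Cpa3 was at 41.2 and 20.6 CPM (1.997-fold, 1.54 to 2.56), Gfi1b at 22.3 and 10.6 CPM (2.09-fold, 1.46 to 2.95) and Itga4 at 124.1 and 87.7 CPM (1.42-fold).

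Hbb-bt, higher in Flt3- Ly6d+ cells than in the sort, was lower in the Tcf7 cells (7.79 and 33.5 CPM, 4.30-fold, 2.55 to 7.92), on 14 UMIs. Since 53.0% of its UMIs in the sort lay in 10 cells, this ratio can rest on where a few cells fell. The counting interval does not cover that. Gata3 did not differ beyond counting error between cells with and without a Tcf7 UMI (16.7 and 18.9 CPM). Between cells with and without a Ccr9 UMI, Meis1 was 1.82-fold (1.43 to 2.31) and Flt3 1.38-fold (1.20 to 1.58) higher in those with one.

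Clustering the cells of the sort alone gave 6 clusters of 462, 355, 250, 182, 97 and 66 cells (5 at a lower and 9 at a higher resolution). Cluster genes define the clusters and are not results. The smallest, granulocyte-like by its markers, held 64 of the 68 class cells. The largest was led by Rsad2, Ifi44, Ifit1, Klrd1, Ccl3 and Ccl4, and 0.659% of its cells held 5 or more G2 and M phase UMIs. Its Ccr9 level was 77.1 CPM and its Flt3 level 127.8 CPM, the highest of the 6 for both. The clusters of 250, 182 and 97 cells held most of the cells with 5 or more G2 and M phase UMIs, at 59.6%, 44.5% and 100%. The cluster of 355 cells was led by Ung, Alkbh2, Sh2d2a, Ly6d and Mcm2.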

How the data were processed

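The deposited matrix holds counts, UMIs per gene and cell barcode, which the authors made with Cell Ranger 3.0 against mm10, per the submitters' processing notes. The authors also deposited hashtag counts for each barcode. The sources used here do not say whether these are reads or UMIs, or how cells were assigned. No cells were filtered beyond that assignment, no doublet caller was run, and 27645 of 27998 gene identifiers were matched to GENCODE M21.

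UMIs were summed per sort and scaled to CPM. CPM carry exact Poisson intervals, ratios binomial-split intervals and shares exact Clopper-Pearson intervals, all at 95% and for counting error only. The named genes were the 12 largest ratios in each direction past the size rule, up to 15 over the highest or under the lowest sort, the 15 largest Fano factors, and members of the 22 lists; predicted, mitochondrial, ribosomal and clone-named genes were counted only. The members and lists were chosen with earlier results of these data known. Python 3.11.15, numpy 2.4.6, scipy 1.17.1 and leidenalg 0.10.2 were used, with edgeR 4.0.16 (TMM) and DESeq2 1.42.0 (size factors) for alternative scales alone. Scripts were tested on simulated data. Alternatives were other scales, cell weights, thinning depths, minimums and subsets of cells. Leaving the granulocyte class out of the comparisons inside the sort, and the interferon list, were added after seeing the data. A gene was left out of that list for a reason unrelated to its values and is not reported here.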

Additional observations from a re-analysis of the deposited data

How the results depend on the processing

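The counts of genes past the size rule changed most with its minimum and with the cells used. Against Flt3+ HSA+ cells the 9 lower genes became 51 with equal weight per cell, 51 with cells thinned to 3000 UMIs, 16 without the granulocyte class, 35 without the 5% of cells with most UMIs and 4 in cells with no G2 or M phase UMI. The 5 higher genes became 2 after thinning and 3 without G2 or M phase cells. In those cells the genes higher than in Flt3- Ly6d- HSA- cells were 29 and than in Flt3- Ly6d+ cells 50. With a minimum of 50 CPM the higher and lower counts were 3 and 5 against Flt3+ HSA+, 43 and 13 against Flt3- Ly6d- HSA-, 45 and 33 against Flt3- Ly6d+, and 35 and 42 against the control, with 0 genes over the highest gated sort. With no minimum they were 594 and 418, 632 and 819, 724 and 1173, and 1177 and 873, with 35 over the highest and 112 under the lowest sort. Thinning gave 2 under the lowest. With no minimum more genes were tested, many at low counts. The cause of these and the other changes was not tested.

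The Lmo2 ratio over the highest other gated sort, 0.94 with all cells, turned to 1.07 with equal weight, 1.02 thinned, 1.11 without the granulocyte class, 1.01 without the deepest cells and 1.04 without G2 or M phase cells. In the last setting the sort was also above the lowest other sort for Gata3 (1.07), Tns3 (1.03) and Ccng2 (1.19). Without the granulocyte class Ctsg over Flt3- Ly6d+ was 0.745, the granulocyte list median (log2) -0.048 and Lmo2 between the G2 and M classes 0.997. Ctsg and the rest of that list had chosen the class. The granulocyte class was 6.16% of the sort at 5 markers. At 6000 UMIs, which left out 27 cells, 27.9% held no G2 or M phase UMI, 36.3% held 5 or more, and 237 genes had a Fano factor of 1.5 or more. Of the alternatives, 78 for main results stayed within their limits and 33 moved. For single genes, lists and splits 784 stayed, 167 moved (142 gene ratios, 21 list medians and 4 splits) and 11 reversed. A reversal was counted only where the main ratio had an interval without 1, or the main list median was at least 1.5-fold. Smaller values could change direction uncounted: the median log2 ratio of all genes over Flt3- Ly6d+ went from -0.038 to 0.029 with TMM. No paired analysis was possible because each sort was made once and carries no replicate number. With 1 sort of each kind, differences between sorts cannot be told apart from differences between single preparations.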
